A study of Schizosaccharomyces pombe with 4 samples.

Results

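The genes eno101, fba1 and tdh1 of the fission yeast Schizosaccharomyces pombe encode 3 enzymes of glycolysis. Together with 1 kb on either side they were covered by 203 of the 43993 genomic tiles of the arrays: 69 tiles at eno101, 66 at fba1 and 68 at tdh1. The genes were chosen by a low ratio of newly made histone H3 in IRD2 cells against WT cells, with earlier results of the same arrays known, and they are 3 of the 2174 annotated genes that held at least 3 whole tiles. Every value that involves the IRD2 or WT array is therefore a description of what they were chosen for, and no test was made.

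The study compared 4 genotypes, each with 1 array: the double mutant IRD2 clr3D, IRD2 (written IR-D2 in the genotype labels, which do not define it), clr3D, a deletion of the histone deacetylase gene clr3, and wild type (WT). All 4 carried the plasmid pINV1-H3.2-FLAG, which by its name places a FLAG-tagged H3 under the invertase promoter. All grew in 8% glucose medium, were held with 15 mM hydroxyurea for 4 h, and were then moved, still in hydroxyurea, to medium with 4% sucrose and no glucose for 2 h so that the tagged H3 was made. Cells were fixed with 1% formaldehyde for 20 min and the DNA was sheared to 400 to 600 bp, so neighbouring tiles, 60 bases long and spaced 50 bp, read the same fragments and are not replicates. DNA bound by the anti-FLAG gel carried Cy5 and whole-cell extract DNA carried Cy3.

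The unit throughout is the log2 of Cy5 over Cy3, set to 0 at each array's median: a high value marks DNA into which new H3 had entered. A ratio that is lower in all cells and one that is lower in a part of the cells cannot be told apart. The SD given is that between tiles of 1 array and says nothing of the spread between cultures.

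Glycolysis splits glucose into pyruvate in the cytoplasm. Fba1, the fructose-bisphosphate aldolase, cleaves the 6-carbon sugar into a pair of triose phosphates. Tdh1, a glyceraldehyde-3-phosphate dehydrogenase, carries out the oxidative step, and Eno101, an enolase, makes phosphoenolpyruvate. In yeasts grown on glucose such genes are among the most strongly transcribed. Nucleosomes in the path of RNA polymerase can lose and regain histones outside DNA replication, and hydroxyurea, which starves replication forks of nucleotides, limits the share of new H3 that enters behind forks.

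All 3 genes lie on the forward strand of chromosome II. In the coordinates of the array files eno101 (SPBC1815.01) spans 2202996 to 2204452, fba1 (SPBC19C2.07) 1690121 to 1691399 and tdh1 (SPBC32F12.11) 2809395 to 2810851, UTRs included. These positions are those of the RefSeq annotation of ASM294v3 plus 1800 bp. The 300 bases before each annotated start are shown because the double mutant and IRD2 differed more there (by 1.22 at eno101, 0.77 at fba1 and 0.80 at tdh1 in log2) than over the gene bodies. They are the forward strand of ASM294v3, from RefSeq, and the capitals mark TATAAA or TATATA.
eno101, chrII:2200896-2201195: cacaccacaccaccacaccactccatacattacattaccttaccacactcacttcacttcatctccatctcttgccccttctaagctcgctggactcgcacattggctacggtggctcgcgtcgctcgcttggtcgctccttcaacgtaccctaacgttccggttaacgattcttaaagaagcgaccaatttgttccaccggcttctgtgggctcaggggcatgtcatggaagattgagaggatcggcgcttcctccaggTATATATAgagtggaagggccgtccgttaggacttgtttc
fba1, chrII:1688021-1688320: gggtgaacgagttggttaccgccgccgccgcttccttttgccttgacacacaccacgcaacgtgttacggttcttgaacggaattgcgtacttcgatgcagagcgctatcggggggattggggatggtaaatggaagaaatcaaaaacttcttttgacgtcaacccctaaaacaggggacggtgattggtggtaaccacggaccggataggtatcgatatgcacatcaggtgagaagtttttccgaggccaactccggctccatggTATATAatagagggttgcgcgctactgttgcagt
tdh1, chrII:2807295-2807594: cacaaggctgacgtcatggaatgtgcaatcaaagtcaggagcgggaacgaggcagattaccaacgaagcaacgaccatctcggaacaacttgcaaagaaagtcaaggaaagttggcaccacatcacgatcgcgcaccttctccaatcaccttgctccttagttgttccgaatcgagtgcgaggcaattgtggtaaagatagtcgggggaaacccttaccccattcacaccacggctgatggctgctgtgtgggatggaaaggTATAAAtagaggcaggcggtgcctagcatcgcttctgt
GC content of these windows was 52.3% for eno101 and 51.3% for both fba1 and tdh1. With positions counted back from the annotated start, TATATA began at -40 and -38 in eno101, in 2 overlapping copies, and at -34 in fba1, while TATAAA began at -38 in tdh1. Searched on both strands, TATAAA was in 51.2% and TATATA in 30.2% of the same windows of 5111 protein-coding genes. CCAAT, the core of the CCAAT box, was in all 3 windows, at -199 (reverse strand) and -115 in eno101, at -184 and -116 in fba1 (both reverse strand) and at -159 in tdh1, and in 41.0% of the 5111. The letters CCCCTC, known as the core bound by the transcription factor Rst2, and GAANNTTC, of the heat shock element, were in 1.94% and 11.3% of the 5111 windows and in none of these 3, which says only that these letters are not there. The matches are descriptions of the sequence.

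Every array held at least 43811 tiles well above background in both channels, none was saturated, and all 4 lay on 1 slide and 1 scan. Extract DNA was at least 64-fold lower than in WT at 9 tiles of the mating-type contig and 8 of chromosome II in both the double mutant and IRD2, and at none of either in clr3D. The clr3 gene was not among the 2174, so its deletion was not checked here. The median tile had a processed signal of 1057 to 1146 in Cy3 and 1062 to 1093 in Cy5, and eno101 and fba1 were dimmer than that. Over eno101 the median Cy5 signal was 117 in the double mutant, 109 in IRD2, 479 in clr3D and 371 in WT, and the median Cy3 signal 228, 336, 492 and 388 in the same order. Over fba1 the Cy5 medians were 216, 308, 837 and 774 and the Cy3 medians 405, 628, 715 and 644 in that order. Over tdh1 they were 756, 799, 1295 and 1148 in Cy5 and 853, 976, 1104 and 1003 in Cy3. Of the tiles inside the genes, 1 of tdh1 and none of eno101 or fba1 was not well above background in some array.

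**Figure D1:**
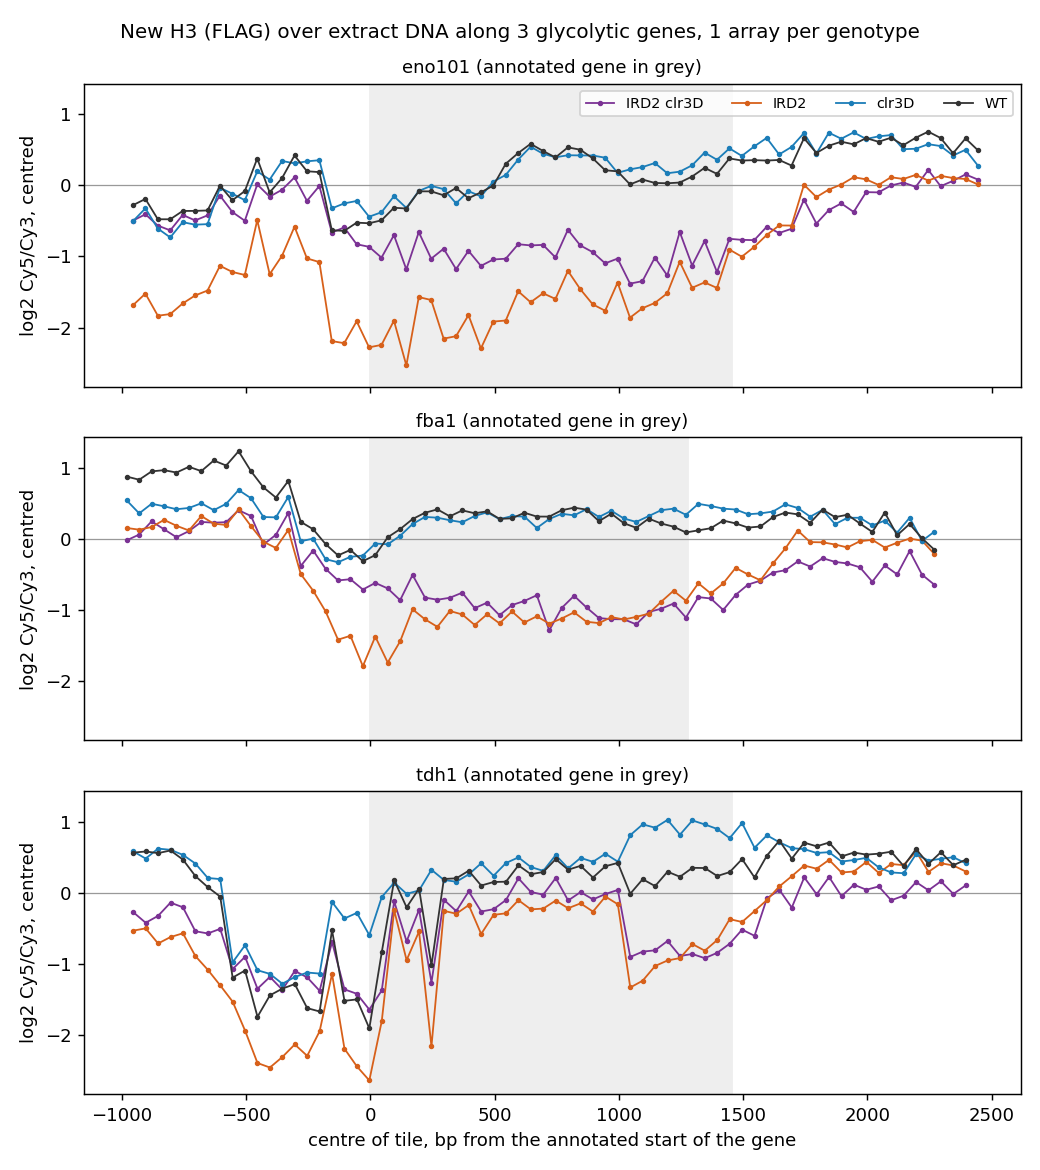
Log2 Cy5/Cy3 of each tile (points, joined by lines), centred on the array median, against the distance of the tile's centre from the annotated start of each gene, for the 4 arrays; the annotated gene is grey. The IRD2 profile lies under the WT profile along all 3 gene bodies, as does that of the double mutant; at eno101 the double mutant stays near WT upstream of the gene and departs from it inside.

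Over the gene bodies all 3 genes carried less new H3 over extract in both strains with IRD2 than in either strain without it, and clr3D stood close to WT at eno101 and fba1. A body difference was counted as past the fold when it reached 0.5 in log2. All 3 genes were lower by this measure in the double mutant against WT, as were 3.96% of the 2174 genes, and all 3 were lower in the double mutant against clr3D, as were 2.21%. In IRD2 against WT, the difference the genes were chosen for, all 3 were lower beside 3.4% of the 2174, from which nothing is read. In the double mutant against IRD2, eno101 alone of the 3 was past the fold in the higher direction, beside 1.29%. In clr3D against WT none of the 3 was past it in either direction, beside 0.506% of the 2174 lower and 1.29% higher, but with Cy5 alone tdh1 was (0.54). Several of these calls depended on the setting. With normexp on spot medians eno101 was not past the fold in the double mutant against WT (-0.33), clr3D (-0.43) or IRD2 (0.20), nor against IRD2 with Cy5 alone (0.23). For tdh1 the call in the double mutant against WT was lost with normexp (-0.42), loess (-0.43) and the median over tiles (-0.38). With coding sequence alone it was also lost (-0.33), as was the call against clr3D (-0.48). Of these 19 coding tiles, however, 16 match gpd3, a second gene much like tdh1, at 50 or more bases. Over the 12 tdh1 tiles with fewer than 50, a set added after seeing the data, both calls held (-0.83 and -1.50). Of these 12, 8 lie at the 3′ end, mostly beyond the coding sequence, and gave -1.06 and -1.77. The coding tiles with fewer than 50, at 66, 116 and 216 bp, had a double mutant minus WT difference of -0.30, -0.48 and -0.24. The call against WT thus did not return within the coding sequence. Over the same 12 tiles clr3D minus WT was also past the fold, in the higher direction (0.66). With normexp fba1 was thus the one gene of the 3 past the fold in the double mutant against WT. The double mutant and IRD2 are both set against the WT array, and the double mutant is in 3 of the 5 differences, so these counts share arrays.

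**Figure D2:**
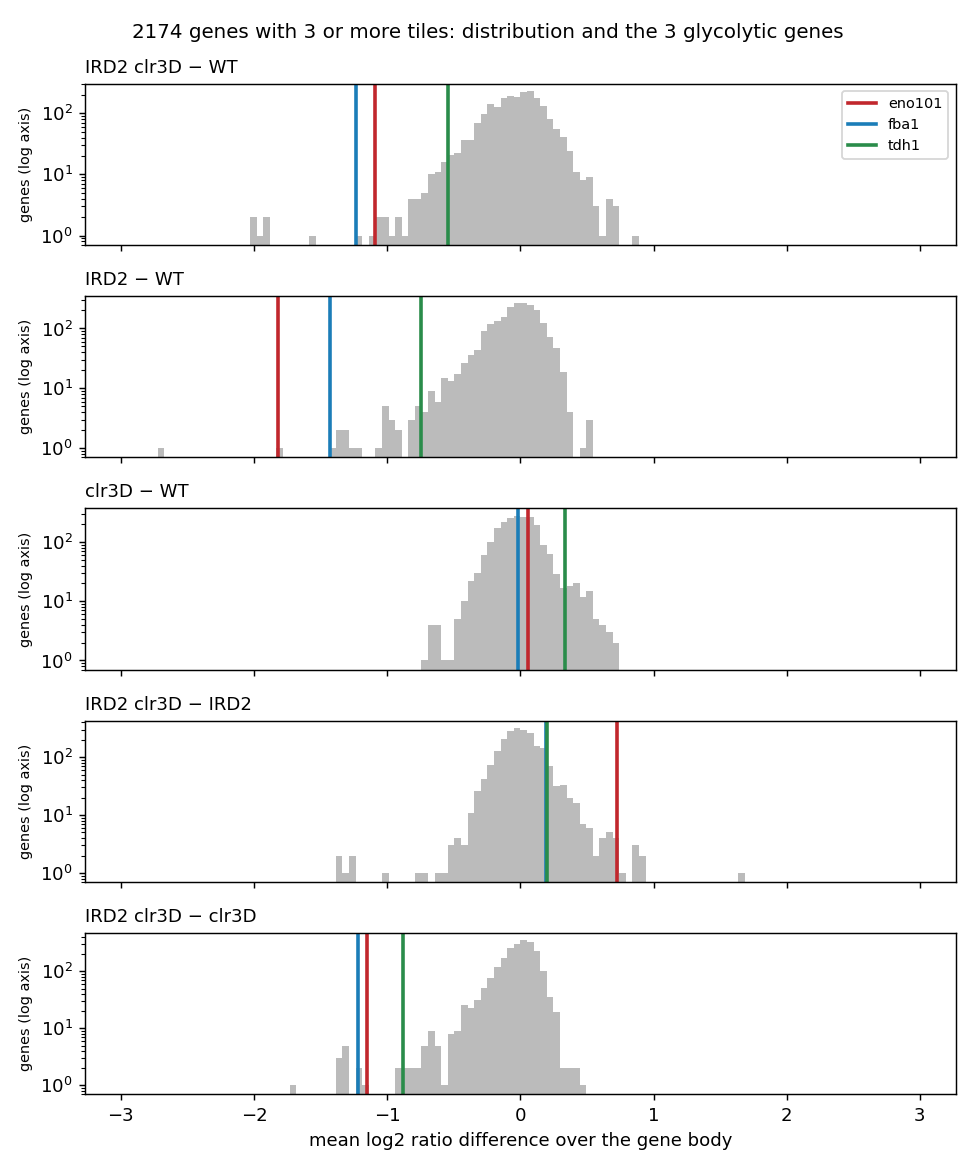
Distribution of the mean log2 ratio difference over 2174 gene bodies (grey, number of genes on a log axis) for 5 differences between arrays, with eno101, fba1 and tdh1 as coloured lines. The 3 genes lie in the lower tail in the 3 differences that set an array with IRD2 against one without it, and eno101 lies in the upper tail for the double mutant against IRD2.

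At eno101 the body ratio was -0.99 in the double mutant (SD between tiles 0.21), -1.71 in IRD2 (SD 0.34), 0.16 in clr3D (SD 0.26) and 0.11 in WT (SD 0.28), over 28 tiles. Tiles ran from -1.38 to -0.62 in the double mutant and from -2.53 to -1.07 in IRD2, against -0.38 to 0.54 in clr3D and -0.49 to 0.58 in WT. The order was IRD2, double mutant, WT, clr3D from low to high, and the last 2 differed by less than the spread between tiles. IRD2 was 3.53-fold lower than WT (log2 difference -1.82, SD between tiles 0.27, 28 of 28 tiles below 0). The double mutant was 2.14-fold lower than WT (-1.10, SD 0.30, 28 of 28) and clr3D differed from WT by 0.06 (SD 0.13, 9 of 28 tiles below 0). Among 894 protein-coding genes the IRD2 minus WT difference ranked 2 from the lowest and that of the double mutant from WT also 2; among all 2174 genes, noncoding ones included, these ranks were 2 and 8.

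The FLAG-bound DNA carried most of this. With Cy5 alone eno101 differed from WT by -1.70 in the double mutant (SD 0.43), by -1.93 in IRD2 (SD 0.48) and by 0.34 in clr3D (SD 0.23). The extract itself differed by -0.59 in the double mutant, with 27 of 28 tiles below 0, by -0.10 in IRD2 and by 0.27 in clr3D. The double mutant thus differed more from WT in Cy5 than in the ratio. Of the 0.72 by which its ratio lay above that of IRD2, Cy5 held 0.23 and Cy3 -0.49. The size of the eno101 differences at these dim tiles changed with the processing: with normexp, run on spot medians with an offset of 50, the body differed from WT by -0.33 in the double mutant and by -0.53 in IRD2.

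**Figure D3:**
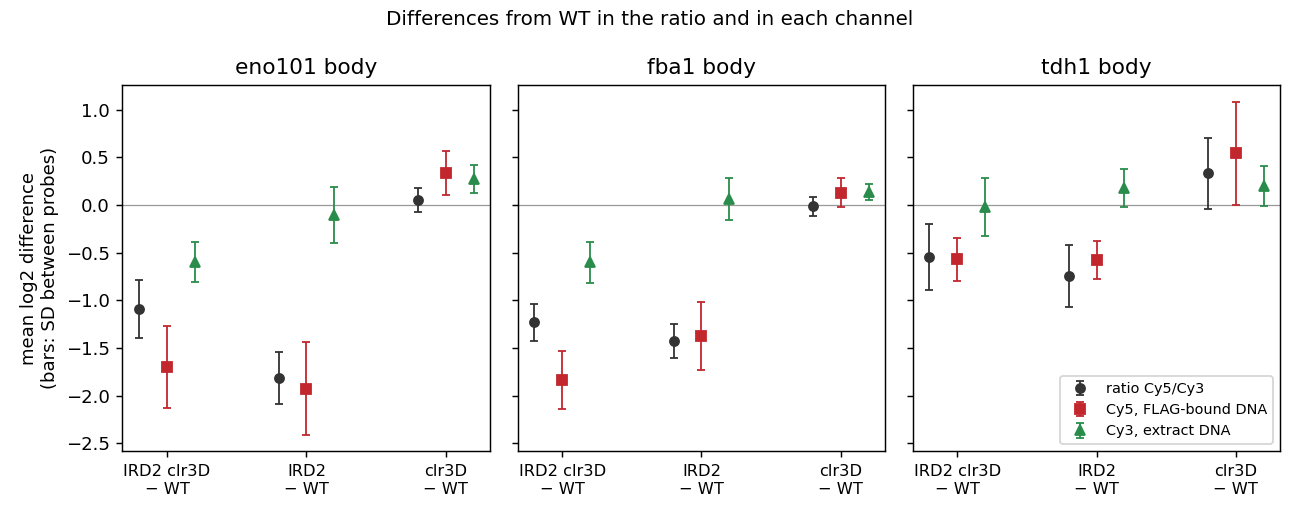
Mean log2 difference from WT over each gene body in the ratio (circles), in Cy5 alone (squares) and in Cy3 alone (triangles), for the double mutant, IRD2 and clr3D; bars are the SD between tiles of the gene. Cy5 is below 0 at all 3 genes in the double mutant and IRD2, and Cy3 lies at -0.59 and -0.60 for eno101 and fba1 in the double mutant.

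Upstream of eno101 the strains with IRD2 parted from each other. Over the 19 tiles of the 1 kb before the gene the ratio was -0.36 in the double mutant (SD 0.26), -1.42 in IRD2 (SD 0.48), -0.17 in clr3D (SD 0.36) and -0.18 in WT (SD 0.32). The difference from WT was -0.18 in the double mutant (SD 0.13) and -1.24 in IRD2 (SD 0.18, 19 of 19 tiles below 0). In Cy5 alone IRD2 differed from WT by -0.87, and Cy3 was higher in IRD2 (-0.98) than in WT (-1.36), so part of its lower ratio lay in the extract. The double mutant lay above IRD2 by 1.05 (SD 0.27, no tile below 0), and this held in Cy5 alone (0.72), while the extract differed by -0.33. Within the gene the same difference in the ratio was 1.06 over the first 9 tiles, 0.71 over the middle 10 and 0.40 over the last 9. In Cy5 alone the double mutant and IRD2 had -3.43 and -4.29 over the first 9 tiles, and -2.68 and -2.85 over the middle 10. Over the last 9 they had -3.34 and -3.01, so in Cy5 their order turned at the 3′ end. The 2 mutants thus differed most before the gene and at its start. Of the 5 tiles wholly within the 300 bp before the start, 2 were not well above background in some array.

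The low ratio of IRD2 upstream of eno101 was broad. In steps of 250 bp with 5 tiles each, IRD2 minus WT was -1.51 next to the gene, -1.07 at 250 to 500 bp, -1.13 at 500 to 750 bp, -1.35 at 750 to 1000 bp and -1.25 at 1000 to 1250 bp. It was -0.86 at 1500 to 1750 bp and -0.07 at 2750 to 3000 bp. The double mutant minus WT stayed between -0.31 and -0.02 in all 12 of these steps. Downstream of the gene both strains with IRD2 were below WT for more than 1 kb: IRD2 minus WT was -1.08 in the first 250 bp and -0.07 at 1500 to 1750 bp, and the double mutant minus WT was -1.02 and -0.26 in the same steps.

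At fba1 the body ratio was -0.93 in the double mutant (SD between tiles 0.17), -1.12 in IRD2 (SD 0.19), 0.29 in clr3D (SD 0.11) and 0.30 in WT (SD 0.10), over 24 tiles. Tiles ran from -1.28 to -0.50 in the double mutant and from -1.73 to -0.72 in IRD2, against -0.07 to 0.43 in clr3D and 0.03 to 0.44 in WT. Unlike at eno101, the double mutant and IRD2 stood close together. The double mutant was 2.35-fold lower than WT (-1.23, SD 0.20, 24 of 24 tiles below 0) and IRD2 2.69-fold lower (-1.43, SD 0.18, 24 of 24). The clr3D array differed from WT by -0.02 (SD 0.10, 15 of 24 below 0). Among 894 protein-coding genes fba1 ranked 1 from the lowest in the double mutant against WT and 3 in IRD2 against WT, and among all 2174 genes 7 and 3.

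The channels of fba1 show the same shift in the extract as those of eno101. Cy5 alone differed from WT by -1.84 in the double mutant (SD 0.30), by -1.37 in IRD2 (SD 0.36) and by 0.13 in clr3D. Cy3 alone differed by -0.60 in the double mutant, with 23 of 24 tiles below 0, by 0.06 in IRD2 and by 0.14 in clr3D. The double mutant minus IRD2 difference of fba1 was accordingly 0.19 in the ratio (SD 0.26) and -0.47 in Cy5 alone (SD 0.40, 20 of 24 tiles below 0), so its direction turned with the measure. With normexp the double mutant differed from WT by -0.81 and IRD2 by -1.15.

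Upstream of fba1 WT had a high ratio, in a stretch where all 3 mutants were lower. Over the 13 tiles at 300 to 1000 bp before the gene it was 0.19 in the double mutant (SD 0.14), 0.17 in IRD2 (SD 0.14), 0.47 in clr3D (SD 0.11) and 0.93 in WT (SD 0.17). Differences from WT were -0.75 in the double mutant (SD 0.14), -0.76 in IRD2 (SD 0.08) and -0.47 in clr3D (SD 0.12), with 13 of 13 tiles below 0 in each. In Cy5 alone they were -0.82, -0.57 and -0.37 in the same order. Part of this stretch is the noncoding gene SPNCRNA.1453, which ends 395 bp before fba1. Closer in, over the 5 tiles within 300 bp, the order changed: the double mutant differed from WT by -0.36 (SD 0.05), IRD2 by -1.14 (SD 0.24) and clr3D by -0.09 (SD 0.11). There the double mutant lay above IRD2 by 0.77 in the ratio (SD 0.21) and by 0.68 in Cy5 alone. In the ratio the first 8 tiles of the body had a double mutant minus IRD2 difference of 0.44 and the last 8 one of -0.01. By the ratio fba1, like eno101, thus had its largest difference between these 2 strains at the 5′ end. Cy5 alone did not follow this within the body of fba1. It was -2.13 in the double mutant and -2.04 in IRD2 over the first 8 tiles, and -2.57 and -1.86 over the last 8.

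Downstream of fba1 the double mutant minus WT difference was -0.73 at 250 to 500 bp, -0.54 at 750 to 1000 bp and -0.41 at 2750 to 3000 bp. IRD2 minus WT was -0.48, -0.18 and -0.21 in the same steps, so beyond the gene the double mutant, and not IRD2, was the lower of the 2.

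**Figure D4:**
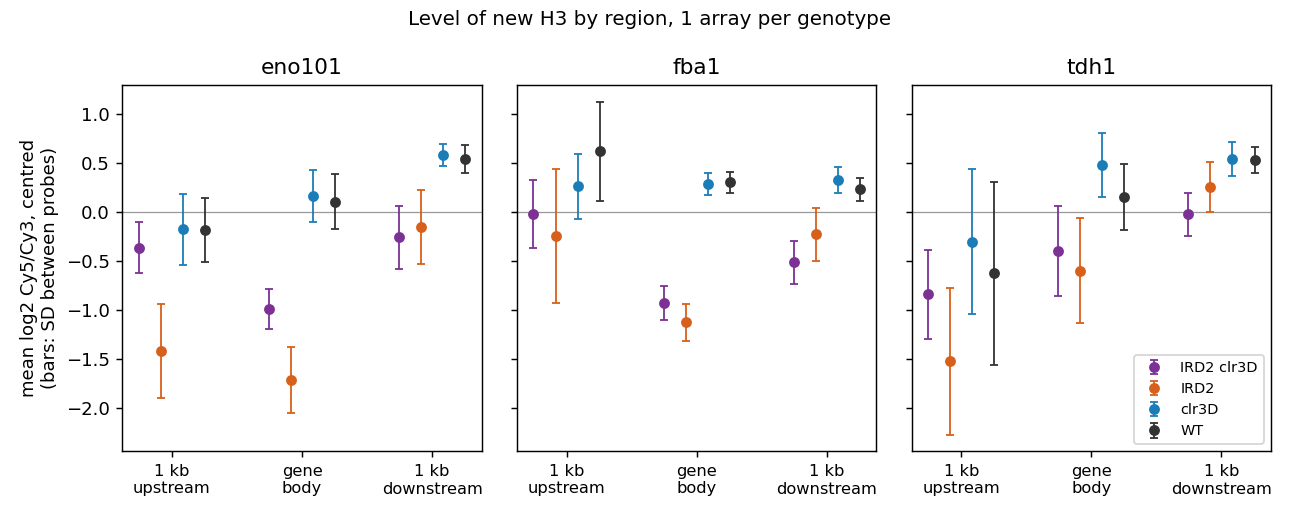
Mean log2 Cy5/Cy3, centred on the array median, in the 1 kb upstream, the gene body and the 1 kb downstream of each gene, for the 4 arrays; bars are the SD between tiles. The 2 strains with IRD2 lie lowest over all 3 bodies, and IRD2 alone is far below the other 3 arrays upstream of eno101.

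At tdh1 the body ratio was -0.39 in the double mutant (SD between tiles 0.46), -0.60 in IRD2 (SD 0.54), 0.48 in clr3D (SD 0.33) and 0.15 in WT (SD 0.34), over 28 tiles. Tiles ran from -1.37 to 0.21 in the double mutant and from -2.16 to -0.05 in IRD2, against -0.06 to 1.03 in clr3D and -1.02 to 0.48 in WT, so the ranges overlapped. Tile by tile the direction was nonetheless uniform: the double mutant differed from WT by -0.55 (SD 0.35, 28 of 28 tiles below 0, 1.46-fold lower) and IRD2 by -0.75 (SD 0.33, 28 of 28, 1.68-fold lower). In clr3D the difference was 0.33 (SD 0.37, 5 of 28 tiles below 0). Cy5 alone differed from WT by -0.57 in the double mutant, by -0.58 in IRD2 and by 0.54 in clr3D, and the extract by -0.02, 0.18 and 0.20 in the same order. Among 894 protein-coding genes tdh1 ranked 13 from the lowest in the double mutant against WT, 5 in IRD2 against WT and 879 in clr3D against WT, and among all 2174 genes 66, 28 and 2088.

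The tiles of tdh1 did not behave alike, and they are split here by their likeness to gpd3, which goes with position in the gene. This second glyceraldehyde-3-phosphate dehydrogenase gene has a coding sequence 93.3% identical to that of tdh1 and was not tiled. At 16 of the 28 tiles 50 or more of the 60 bases match gpd3, so DNA of either gene can bind there, whereas no tile of eno101, of fba1 or of the flanks has such a match elsewhere in the genome (eno102, the second enolase gene, is 63.8% identical to eno101 over the coding sequence). The last of the matching tiles and the next one are shown with gpd3 in the same register, because the ratio steps between them. They are the forward strand of ASM294v3, and capitals mark the bases that differ. The first begins 966 bp after the start of tdh1 and matches gpd3 at 58 of 60 bases; the second begins 1016 bp after the start, holds the last 37 coding bases and 23 bases beyond, and matches at 34.
tdh1, chrII:2808561-2808620: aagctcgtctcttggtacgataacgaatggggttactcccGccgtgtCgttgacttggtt
gpd3, chrII:579655-579714: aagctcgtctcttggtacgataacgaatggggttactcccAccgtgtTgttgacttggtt
tdh1, chrII:2808611-2808670: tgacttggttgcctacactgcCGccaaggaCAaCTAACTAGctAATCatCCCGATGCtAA
gpd3, chrII:579705-579764: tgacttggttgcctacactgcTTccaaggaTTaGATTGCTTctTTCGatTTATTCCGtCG
The tile at 966 bp had a ratio of 0.04 in the double mutant, -0.16 in IRD2, 0.44 in clr3D and 0.42 in WT. The tile at 1016 bp, 50 bp further on, had -0.90 in the double mutant, -1.33 in IRD2, 0.82 in clr3D and -0.01 in WT. The arrays thus lay close together at the first tile and far apart at the second, where clr3D and the 2 strains with IRD2 lay on opposite sides of WT.

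Over the 16 matching tiles the difference from WT was -0.33 in the double mutant (SD between tiles 0.07), -0.52 in IRD2 (SD 0.07) and 0.08 in clr3D (SD 0.11). Over the other 12 it was -0.83 in the double mutant (SD 0.35), -1.06 in IRD2 (SD 0.27) and 0.66 in clr3D (SD 0.34). As means, both the negative and the positive differences were larger in the tiles less like gpd3. Extract DNA was also unlike between the sets, with a mean Cy3 in WT of 0.25 at the matching tiles and -1.77 at the others, whose part in the result was not tested. Of the 12, 8 lie together at the 3′ end, where fewer than 36 bases match, and differed from WT by -1.06 in the double mutant (SD 0.14), by -1.17 in IRD2 (SD 0.16) and by 0.71 in clr3D (SD 0.09). The other 4 lie near the start, at 16, 66, 116 and 216 bp, and the last of them was not well above background in some array. In that order they differed from WT by -0.54, -0.30, -0.48 and -0.24 in the double mutant, so most lay near the matching tiles. In IRD2 they differed by -0.97, -0.42, -0.74 and -1.14, and in clr3D by 0.78, -0.03, 0.19 and 1.34. Across the 28 tiles the number of matching bases and the difference from WT had a Pearson r of 0.93 for the double mutant, 0.91 for IRD2 and -0.75 for clr3D, given as a description since tiles share fragments and libraries and likeness goes with position in the gene.

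**Figure D5:**
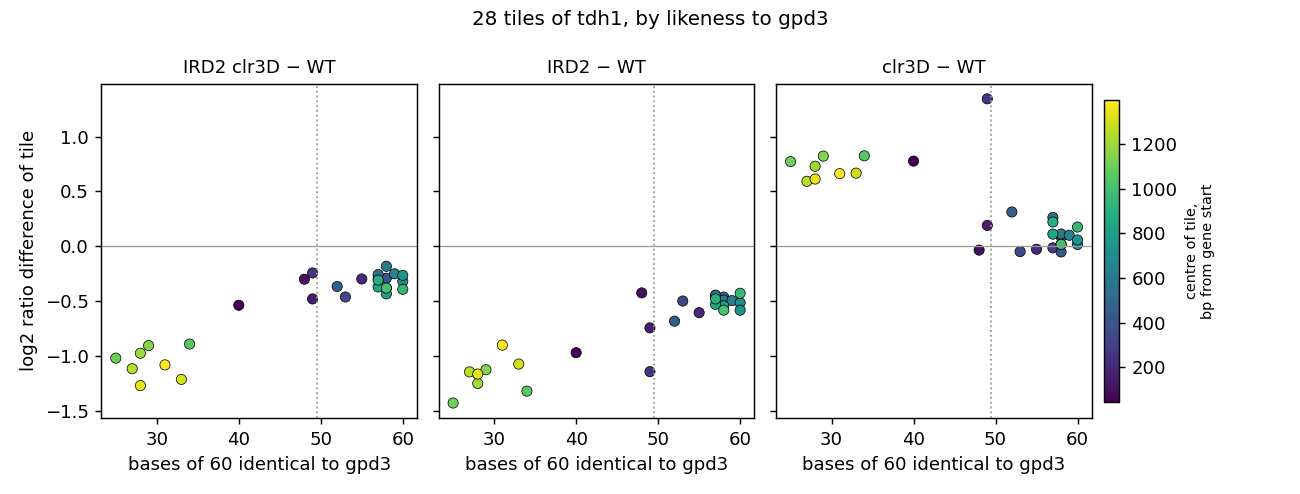
Log2 ratio difference from WT of each of the 28 tdh1 tiles against the number of its 60 bases identical to gpd3, for the double mutant, IRD2 and clr3D; colour gives the distance of the tile's centre from the gene start and the dotted line separates tiles with 50 or more matching bases. The 8 tiles at the 3′ end, unlike gpd3, lie between -1.27 and -0.89 in the double mutant, between -1.43 and -0.90 in IRD2 and between 0.59 and 0.82 in clr3D, while the 16 like gpd3 lie nearer 0.

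The region before tdh1 had the lowest ratio of the 3 upstream regions. In Cy5 alone this did not hold in every array: within 300 bp, IRD2 had -3.70 at eno101 and -3.43 at tdh1. Over the 5 tiles within 300 bp of the start of tdh1 the ratio was -1.20 in the double mutant (SD 0.30), -2.00 in IRD2 (SD 0.51), -0.60 in clr3D (SD 0.48) and -1.36 in WT (SD 0.48). Here clr3D lay above WT by 0.76 (SD 0.39, no tile below 0; 0.98 in Cy5 alone), IRD2 below WT by a difference of -0.64 (SD 0.24), and the double mutant differed from WT by 0.16 (SD 0.23). In Cy5 alone IRD2 differed from WT there by 0.15 and the double mutant by 0.68, while the extract differed by 0.80 in IRD2 and by 0.52 in the double mutant, so the lower ratio of IRD2 came with more extract DNA and not with less FLAG-bound DNA. Over the whole 1 kb the ratio difference from WT was -0.21 in the double mutant, -0.90 in IRD2 and 0.32 in clr3D, and that of the extract 0.48, 0.66 and 0.16. Further up, at 1000 to 1250 bp, the double mutant differed from WT by -0.96 and IRD2 by -1.16; the noncoding gene SPNCRNA.1550, which ends 2 bp before tdh1, covers all of this stretch.

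Set against its own single mutants, the double mutant was lower than clr3D over all 3 bodies: by a difference of -1.15 at eno101 (SD 0.31), -1.22 at fba1 (SD 0.24) and -0.88 at tdh1 (SD 0.64), with every tile below 0. Against IRD2 it differed by 0.72 at eno101 (SD 0.32, no tile below 0), 0.19 at fba1 and 0.20 at tdh1 (SD 0.21, 3 of 28 below 0). The double mutant minus clr3D difference less the IRD2 minus WT difference, which is 0 where the 2 changes add up in log2, was 0.67 at the eno101 body (SD 0.37), 0.21 at fba1 (SD 0.34) and -0.13 at tdh1 (SD 0.35). Over the 1 kb upstream it was 1.05 at eno101 (SD 0.28, 19 of 19 tiles above 0), 0.58 at fba1 (SD 0.21, 19 of 19) and 0.36 at tdh1 (SD 0.35, 17 of 19). In Cy5 alone the bodies gave -0.11, -0.60 and -0.54 and the upstream regions 0.79, 0.26 and 0.02 in the same order of genes. With 1 array per genotype this quantity has no error between cultures.

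Within a single array, the body and the 1 kb upstream were ordered differently in the 3 genes. At eno101 the body minus upstream difference was -0.63 in the double mutant and -0.29 in IRD2, against 0.34 in clr3D and 0.29 in WT. At fba1 it was -0.91 in the double mutant, -0.88 in IRD2, 0.03 in clr3D and -0.32 in WT. At tdh1 it was 0.44 in the double mutant, 0.93 in IRD2, 0.79 in clr3D and 0.78 in WT. Of the 3, tdh1 alone had a higher mean over all body tiles than over the 1 kb upstream in all 4 arrays, but this mean includes the gpd3-like tiles. Over its 12 tiles less like gpd3 the ratio was -0.84 in the double mutant, -1.07 in IRD2, 0.65 in clr3D and -0.01 in WT. The 1 kb upstream had -0.84, -1.52, -0.30 and -0.62 in the same order, so in the double mutant the 2 were alike. With the 300 bp next to the gene in place of 1 kb, the order was the same in the 3 genes in the arrays without IRD2: body minus upstream was 0.18 at eno101, 0.50 at fba1 and 1.09 at tdh1 in clr3D, and 0.39, 0.43 and 1.52 in WT. At fba1 the sign thus turned in WT, and also in IRD2 (0.14), while the double mutant stayed below 0 (-0.44).

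Of 38 genes of glycolysis, gluconeogenesis, fermentation, the pentose phosphate pathway and sugar use found in the annotation, act1 included for comparison, 7 were measured, so little of the pathway was on the tiles. Besides the 3 genes these were pfk1, the phosphofructokinase gene, tkt1, a transketolase gene of the pentose phosphate pathway, inv1, the invertase gene, and act1, the actin gene. None of these 4 was past the fold in IRD2 against WT, and 1 of 4, inv1, was past it in the double mutant against WT. At pfk1 the ratio was 0.39 in the double mutant, 0.07 in IRD2, 0.37 in clr3D and 0.23 in WT, and the difference from WT 0.16 in the double mutant and -0.16 in IRD2. At tkt1 these differences were -0.09 and -0.21, and at act1 -0.14 and -0.16. At inv1 they were -0.62 and -0.49, and -0.27 and -0.16 in Cy5 alone; whether the plasmid, named for inv1, also binds its tiles was not tested. Of 25 ribosomal protein genes, another strongly transcribed group, 1 was past the fold in the lower direction in the double mutant against WT and 1 in IRD2 against WT. Of all 2174 genes 3.96% and 3.4% were, so these counts are near the share over all genes. The medians of the 25 were -0.11 and -0.25 beside -0.02 over all 2174 genes in both.

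Genes next to the 3 members took part in the low ratio to an unequal degree. Beyond the 3′ end of eno101, cut2, the securin gene, 348 bp away, differed from WT by -0.54 in the double mutant and -0.48 in IRD2. Beyond fba1, prp38, which encodes a splicing factor, 539 bp away, differed by -0.52 in the double mutant and -0.15 in IRD2. Beyond tdh1, tfb5, which encodes a subunit of the general transcription factor TFIIH, 823 bp away, differed by -0.43 in the double mutant and 0.07 in IRD2. The ratio was lower in the double mutant than in IRD2 at prp38 (-0.37) and tfb5 (-0.50), while at cut2 the double mutant and IRD2 were nearly alike (-0.06). At the glycolytic genes beside them the ratio was higher in the double mutant, by 0.72 at eno101 (SD 0.32), 0.19 at fba1 (SD 0.26) and 0.20 at tdh1 (SD 0.21). In Cy5 alone the double mutant and IRD2 differed by only 0.0066 at tdh1 (SD 0.18). In Cy5 alone fba1 had the same order as prp38: -1.84 in the double mutant and -1.37 in IRD2 at fba1, and -0.47 and -0.07 at prp38. The other 9 annotated neighbours within 1 kb are noncoding RNA genes and share tiles with the flanks described above.

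For each of the 3 genes, the 3 others with the most similar set of differences from WT were listed, by Euclidean distance over the double mutant, IRD2 and clr3D. The length of this list was fixed, and the distance includes the IRD2 minus WT difference that the genes were chosen for. Nearest to eno101 were fba1 (distance 0.42), the noncoding mamRNA (0.58) and SPNCRNA.337 (0.60). Nearest to fba1 were mamRNA (0.38), eno101 (0.42) and a second annotated extent of mamRNA (0.43). The mamRNA gene, 12 tiles at 1308581 to 1309259 of chromosome II, differed from WT by -0.90 in the double mutant, -1.32 in IRD2 and -0.17 in clr3D. Nearest to tdh1 were the noncoding SPNCRNA.5455 (0.22), SPNCRNA.1550, its upstream neighbour (0.29), and SPNCRNA.385 (0.33), which has 2 tiles not well above background in some array. SPNCRNA.5455 and SPNCRNA.385 overlap each other. The likeness is that of the ratio. In Cy5 alone clr3D minus WT was 0.54 at tdh1, but -0.10 at SPNCRNA.5455, 0.37 at SPNCRNA.1550 and -0.31 at SPNCRNA.385. The double mutant differed from WT in Cy5 alone by -1.70 at eno101, -1.84 at fba1, -0.69 at mamRNA and -0.30 at SPNCRNA.337. No protein-coding gene other than eno101 and fba1 was thus among the 3 nearest to any of them.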

How the data were processed

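The files are scanner output of 4 two-colour Agilent tiling arrays of fission yeast, 1 per genotype, so no spread between cultures is known and no test was made. Per the file headers, the processed intensities were background-subtracted and dye-normalized with 1 linear factor per channel by Agilent Feature Extraction 12.0.3.1. The deposited table of processed values holds the same Cy5 over Cy3 ratio, equal within 1e-06 in log2. No header names a genome build, so genes were placed from the RefSeq annotation of ASM294v3 plus 1800 bp, checked by the GC content of 1499 tiles around each gene against the extract signal (best r 0.309, 0.390 and 0.419).

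Values computed here are log2 of processed Cy5 over Cy3 minus the array median over 43993 genomic spots, without outlier flags and without loess or quantile normalization; each channel alone was centred likewise. A gene body is the mean over tiles wholly inside the annotated gene, with the SD between tiles; upstream and downstream regions are 1000 bp. A fold of 0.5 in log2 and genes with at least 3 tiles set the background. The members and lists were chosen with earlier results of these data known. Named genes are the 3 genes, measured genes of the pathway list, neighbours within 1 kb and the 3 nearest genes to each. Alternatives were Cy5 alone, normexp, loess, scaling to 1 median absolute deviation, no centring, medians, dim and outlier filters, coding sequence, other extents and a 300 bp upstream region. Tools were Python 3.11.15, pandas 2.3.3, Biopython 1.88, blastn 2.17.0, R 4.3.3 and limma 3.58.1; the shift calculation was tested on simulated data.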

Additional observations from a re-analysis of the deposited data

Results flagged for a closer look

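At fba1 the differences between strains with and without the clr3 deletion had opposite signs with IRD2 and without it. Over the body the double mutant minus IRD2 difference was 0.194 (SD between tiles 0.26) and the clr3D minus WT difference -0.0151 (SD 0.10), both smaller than their SD. Over the 1 kb upstream the same differences were 0.220 (SD 0.37) and -0.358 (SD 0.20). In Cy5 alone these upstream differences were 0.0020 (SD 0.46) and -0.257 (SD 0.24), so the former was near 0 there. With 1 array per genotype the difference between the backgrounds was not tested, and the body signs depended on the measure: in Cy5 alone the same body differences were -0.466 and 0.130, and with normexp 0.338 and 0.00098, both above 0.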

How the results depend on the processing

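No paired analysis was possible because each genotype has 1 array, and no replicate could be left out. The body and upstream differences moved by less than the SD between tiles, though tdh1 lost calls as given in the report, with medians, no centring, outlier spots kept, tiles well above background, coding sequence and the stated gene extents; the last, the set without gpd3-like tiles and protein-coding genes were added after seeing the data. With Cy5 alone, body differences of eno101 were 0.34 (clr3D minus WT), -1.70 (double mutant minus WT), 0.23 (minus IRD2) and -2.03 (minus clr3D), those of fba1 0.13, -1.84, -0.47 and -1.97. Upstream they were -0.87 (IRD2 minus WT) and 0.72 (double mutant minus IRD2) at eno101, -0.43 (double mutant minus clr3D) at fba1 and -0.25 (IRD2 minus WT) at tdh1, and the departure from additivity over the bodies was -0.11 at eno101, opposite in sign to the ratio, -0.60 at fba1 and -0.54 at tdh1. At fba1 the ratio gave 0.21, smaller than its SD between tiles. With normexp, eno101 body differences were -0.53 (IRD2 minus WT), -0.33 (double mutant minus WT), 0.20 (minus IRD2) and -0.43 (minus clr3D), with a departure from additivity of 0.10, and upstream ones -0.63 (IRD2 minus WT) and 0.53 (double mutant minus IRD2). For fba1 they were -1.15 (IRD2 minus WT), -0.81 (double mutant minus WT) and -0.82 (minus clr3D), and upstream of tdh1 -0.27 (IRD2 minus WT) and 0.17 (double mutant minus IRD2). With loess, the double mutant differed from WT by -0.79 over eno101, -0.033 upstream of it and -0.97 over fba1, and from clr3D by -0.82 over eno101, -0.94 over fba1 and -0.19 upstream of fba1. With 1 median absolute deviation, IRD2 minus WT upstream of eno101 was -1.42. With 300 bp upstream, clr3D minus WT was 0.26 at eno101, -0.092 at fba1 and 0.76 at tdh1, the double mutant minus clr3D -0.44 at eno101, and at fba1 IRD2 minus WT -1.14, the double mutant minus WT -0.36 and minus IRD2 0.77, while body minus upstream at fba1 turned to 0.14 in IRD2 and 0.43 in WT. Genes past the fold in the lower direction numbered 42 in IRD2 against WT with Cy5 alone and 119 with normexp, beside 74; with Cy5 alone the double mutant had 29 against WT, beside 86, and 20 against clr3D, beside 48. In clr3D against WT, beside 11 lower and 28 higher, there were 4 and 3 with Cy5 alone, 33 and 49 with normexp, and 18 higher with loess. Among 894 protein-coding genes the counts were 17 lower for the double mutant against WT, 13 lower for IRD2 against WT, 5 higher for the double mutant against IRD2, 8 lower for the double mutant against clr3D, and 3 lower and 8 higher for clr3D against WT. The causes were not tested, other than that fewer genes were counted in the last. Cy3 alone is given in the text as the extract value. The normexp runs changed the signal column and the offset as well as the background step: they used spot medians because the files hold no mean signals. Signal over background limits eno101 most, whose Cy5 median in the double mutant and IRD2 was 117 and 109.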
